A study of Mus musculus with 14 samples.

Results

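The 8 genes described here are the classical major histocompatibility complex (MHC) class I heavy chain genes H2-D1 and H2-K1, the light chain gene B2m, the peptide transporter genes Tap1 and Tap2, the peptide-loading gene Tapbp, and the immunoproteasome subunit genes Psmb8 and Psmb9. They were chosen by gene symbol in the platform annotation of an oligonucleotide array of 12488 probe sets, on which 8251 genes had a probe set of their own. All 8 were on the array, through 15 probe sets annotated to 1 of them alone, and all 15 passed the filter on dim signals. RNA was measured on 14 arrays of mouse mammary tissue. The samples were 5 tumors of MMTV-neu mice (numbered 22, 24, 26, 50 and 52), 2 further tumors that the labels call set B (80 and 81), 4 MMTV-neu glands taken next to a tumor and described as preneoplastic (adjacent gland, 23, 25, 49 and 51), and 3 wild-type pools (40, 41 and 42). The neu oncogene of these mice is expressed in mammary epithelium from the MMTV promoter, a mouse mammary tumor virus sequence, so both tumor groups and the adjacent glands carry the transgene. Each wild-type pool held the RNA of 5 mice, described as age-matched. Pool 40 was taken at 31 weeks from mice of 87.5% FVB and 12.5% CF-1 background, and pools 41 and 42 at 41 weeks from mice of 97% FVB and 3% CF-1 background. The ages and strain background of the transgenic mice are not given in the sources used here. The labels do not say whether the tumors and adjacent glands are from separate mice, and p-values reflect no more than sample-to-sample spread.

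MHC class I molecules display peptides from inside the cell to CD8 T cells. The proteasome cuts cytosolic proteins, and in cells exposed to interferon its immunoproteasome form, with the subunits encoded by Psmb8 and Psmb9, is preferred. A heterodimer of the Tap1 and Tap2 products pumps the peptides into the endoplasmic reticulum, tapasin (the product of Tapbp) bridges this transporter to empty class I heavy chains, and a loaded heavy chain paired with beta-2 microglobulin (the product of B2m) moves to the cell surface. Interferons induce the whole set in most cell types, and loss of its members is one of the known routes by which tumors escape T cells.

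Promoter sequences are shown because 6 of the 8 genes moved together over the arrays, and because Tap1 and Psmb9 share 1 promoter region. RefSeq (build GRCm38.p6) held a window of 250 bases before to 50 bases after the start for 7 of the 8 members, from the C57BL/6J reference and not from the strains of these mice. The windows below are written 5′ to 3′ on the gene's strand. Capitals mark each match to 1 of 4 motifs searched on both strands: TGACG, the core of a CRE-like element, GGGNNTTCC, like a binding site of NF-kappaB, the core of the interferon-stimulated response element (GAAA and GAAA with 2 bases between), and TTCNNNGAA, the core of a STAT site.
H2-D1, chr17:35262844-35263143, plus strand: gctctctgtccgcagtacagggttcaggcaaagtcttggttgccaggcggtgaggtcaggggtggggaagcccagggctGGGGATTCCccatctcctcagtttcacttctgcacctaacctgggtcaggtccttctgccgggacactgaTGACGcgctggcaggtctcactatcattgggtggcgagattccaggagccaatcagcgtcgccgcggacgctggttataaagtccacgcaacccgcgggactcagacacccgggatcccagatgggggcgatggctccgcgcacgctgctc
H2-K1, chr17:34000298-34000597, minus strand: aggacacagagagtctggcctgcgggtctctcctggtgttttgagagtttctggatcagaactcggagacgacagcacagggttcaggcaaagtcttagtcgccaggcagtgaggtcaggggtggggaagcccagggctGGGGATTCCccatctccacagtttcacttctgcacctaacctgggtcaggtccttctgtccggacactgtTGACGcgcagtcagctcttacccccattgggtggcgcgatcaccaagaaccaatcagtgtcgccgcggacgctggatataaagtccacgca
B2m, chr2:122147437-122147736, plus strand: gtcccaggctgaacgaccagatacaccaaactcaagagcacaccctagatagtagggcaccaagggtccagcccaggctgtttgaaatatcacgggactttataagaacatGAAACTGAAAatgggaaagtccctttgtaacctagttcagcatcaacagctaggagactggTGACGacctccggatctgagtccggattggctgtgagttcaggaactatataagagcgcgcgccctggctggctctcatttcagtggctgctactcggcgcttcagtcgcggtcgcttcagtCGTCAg
Tap1, chr17:34187306-34187605, plus strand: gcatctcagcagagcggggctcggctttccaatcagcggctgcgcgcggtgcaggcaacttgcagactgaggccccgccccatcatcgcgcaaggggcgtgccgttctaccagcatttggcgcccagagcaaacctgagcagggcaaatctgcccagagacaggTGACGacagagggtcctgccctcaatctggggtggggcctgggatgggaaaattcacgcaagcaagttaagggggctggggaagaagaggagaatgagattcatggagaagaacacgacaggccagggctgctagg
The heavy chain windows of H2-D1 and H2-K1 each held the match GGGGATTCC followed by TGACG. B2m held GAAACTGAAA at 139 to 130 bases before the start, a match to the interferon-stimulated core, and TGACG on each strand. The window of Psmb9 (chr17:34187281-34187580, minus strand) overlapped that of Tap1 by 275 bases on the opposite strand, so the TGACG match of the Tap1 window is also that of Psmb9. TGACG was thus found in 5 of the 7 members with a window (20.8% of 32851 mouse promoters hold it), GGGNNTTCC in 2 (5.82% of all promoters), the interferon-stimulated core in 1 (3.44%) and TTCNNNGAA in 1, Psmb8 (8.3%). No match overlapped another. A match describes these letters in this window and nothing more. Sites that depart from the 4 patterns were not searched for, so a window without a match may still hold one.

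Across the groups the class I genes showed 2 patterns. H2-D1, H2-K1, B2m, Tap1, Psmb8 and Psmb9 were not called in any comparison, and they varied widely from tumor to tumor. Tap2, in contrast, varied little among tumors and was lower in all 7 of them than in every wild-type pool. Tapbp was slightly higher in the first 5 tumors than in the pools. All arrays entered 1 linear model of the 4 groups in limma on log2 intensities, and a probe set was called at an adjusted p under 0.05 over the 8616 probe sets tested (Benjamini-Hochberg within each comparison). Values below are deposited intensities on a linear scale for the brightest probe set of each gene, differences are on the log2 scale with the standard error of the fit, and group means are geometric. An intensity depends on the probe set, so levels are compared between samples and not between genes.

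**Figure D1:**
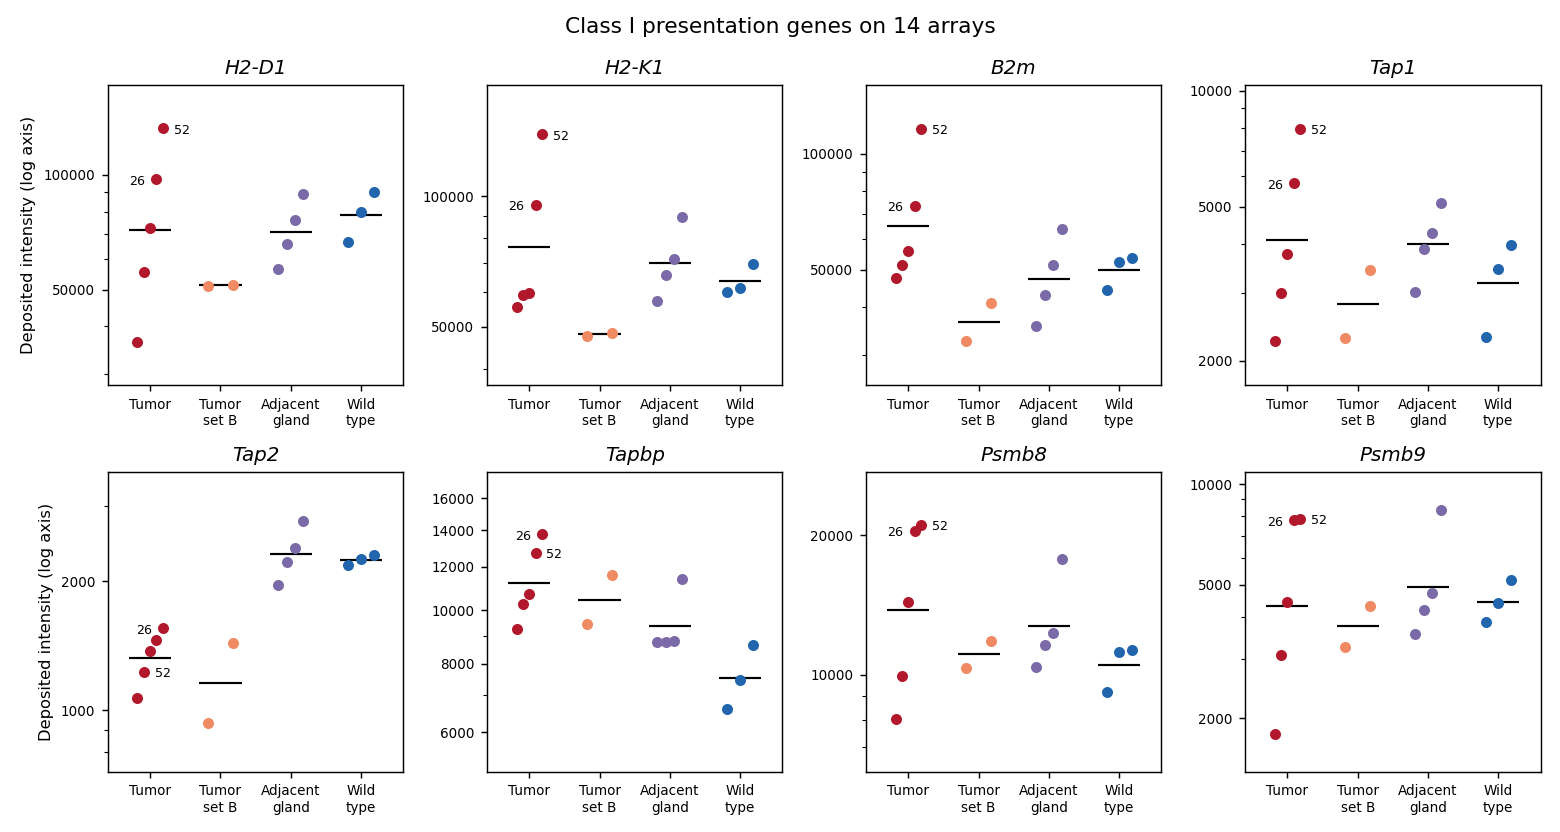
Deposited intensity (log axis) of the 8 genes on 14 arrays, 1 point per array, in tumors, set B tumors, adjacent glands and wild-type pools, with a bar at the geometric mean of each group and tumors 26 and 52 numbered. The 5 tumors spread widest for H2-D1, Tap1 and Psmb9, with tumors 26 and 52 on top, and all 7 tumors lie below all 7 glands for Tap2.

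Tap2 encodes one of the 2 chains of the peptide transporter and was measured by a single probe set. Its intensity was 1069, 1462, 1554, 1373 and 1231 in tumors 22, 24, 26, 50 and 52, and 933.8 and 1438 in set B tumors 80 and 81. In adjacent glands 23, 25, 49 and 51 it was 2393, 1958, 2212 and 2771, and in wild-type pools 40, 41 and 42 it was 2178, 2302 and 2248. All 7 tumors were thus low and did not overlap with the glands of either kind (34.8% of all probe sets did not overlap in tumors against pools and 16.1% were lower without overlap, as were 27.6% in set B against pools and 7.97% in tumors against adjacent gland, where 4.97% were higher without overlap), while the ranges of adjacent and wild-type gland overlapped. Tap2 averaged 1326 in tumors (SD 0.21 on the log2 scale, n = 5) and 2242 in wild-type pools (SD 0.04, n = 3), a difference of -0.76 ± 0.20 (limma, adjusted p = 0.00914, 95% interval -1.18 to -0.33). Against the adjacent glands, which averaged 2315 (SD 0.21, n = 4), the difference was -0.80 ± 0.18 (limma, adjusted p = 0.00676). Set B averaged 1159 (SD 0.44, n = 2) and differed from wild type by -0.95 ± 0.25 (limma, adjusted p = 0.0113), and by -0.64 (adjusted p = 0.178) without tumor 80. The direction held in all 55 alternatives computed for these 3 comparisons and the call in 48. The 3 results are not independent, since 2 of them share the pools and 2 share the tumors. Array lot was confounded with group in part. With lot as a fixed block the difference was -0.50 against wild type (adjusted p = 0.648) and -0.69 against adjacent gland (adjusted p = 0.147). Within lot 2001815, which held tumors 22, 24 and 26 with adjacent glands 23 and 25, it was -0.69 (adjusted p = 0.277).

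Tap1, the partner chain, did not share this pattern. Its intensity was 2249, 3777, 5763, 3001 and 7961 in tumors 22, 24, 26, 50 and 52, and 2292 and 3442 in the set B tumors. The adjacent glands had 3889, 3005, 4276 and 5121, and the wild-type pools 3996, 3456 and 2310. Tumors 26 and 52 lay above all glands and tumor 22 below them, so the groups overlapped. The difference of tumors to wild type was 0.37 ± 0.34 and was not called (95% interval -0.35 to 1.10), an interval that holds both a rise and a fall. A second Tap1 probe set (162278_r_at) gave 0.91 ± 0.47, also not called. The log2 ratio of Tap2 to Tap1 within each array was -1.07, -1.37, -1.89, -1.13 and -2.69 in tumors 22, 24, 26, 50 and 52, and -1.30 and -1.26 in set B. It was -0.70, -0.62, -0.95 and -0.89 in adjacent glands and -0.88, -0.59 and -0.04 in wild-type pools. Every tumor lay below every gland. The ratio, chosen after its values were seen, differed by -1.13 between tumors and wild type (exact permutation test, two-sided p = 0.0357, the smallest that 5 against 3 arrays allow) and by -0.84 between tumors and adjacent gland (exact p = 0.0159, the smallest allowed). Over the 9 ratio tests made, the adjusted values were 0.161 and 0.143, so neither passed the correction.

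**Figure D2:**
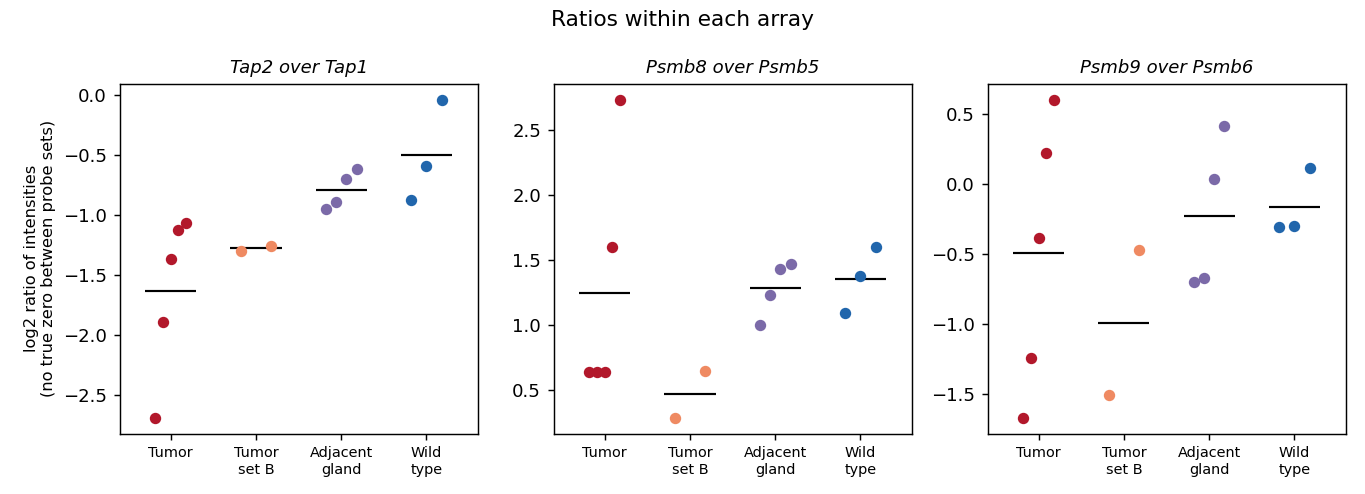
The log2 ratio of 2 probe sets within each array for Tap2 over Tap1, Psmb8 over Psmb5 and Psmb9 over Psmb6, 1 point per array with a bar at the group mean, in tumors, set B tumors, adjacent glands and wild-type pools. For Tap2 over Tap1 all 7 tumors, at -2.69 to -1.07, lie below the glands, at -0.95 to -0.04. For the 2 proteasome ratios the range of the first 5 tumors holds all 7 glands.

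Tapbp encodes tapasin, the chaperone that holds empty class I molecules at the transporter. Its brightest probe set read 10730, 9264, 13770, 10260 and 12750 in tumors 22, 24, 26, 50 and 52, and 9431 and 11590 in set B. It read 11420, 8785, 8757 and 8765 in adjacent glands and 7473, 6604 and 8665 in wild-type pools. All tumors and all adjacent glands lay above the wild-type pools (18.8% of all probe sets were higher without overlap in tumors, 7.71% in adjacent gland), and the ranges of tumors and adjacent glands overlapped. Tumors averaged 11240 (SD 0.23 on the log2 scale, n = 5) and pools 7534 (SD 0.20, n = 3), a difference of 0.58 ± 0.17 (limma, adjusted p = 0.0206). Set B differed from wild type by 0.47 ± 0.22 (limma, adjusted p = 0.136) and adjacent gland by 0.31 ± 0.18 (adjusted p = 0.447). The call did not hold throughout: without pool 40 the adjusted p was 0.0605, without pool 41 it was 0.111, with arrays centred on their medians it was 0.07, without tumors 26 and 52 it was 0.117, and with lot as a fixed block the difference was 0.38 (adjusted p = 0.712). The other 2 Tapbp probe sets gave 0.66 ± 0.32 (102689_at, adjusted p = 0.133) and 0.49 ± 0.30 (162104_f_at, adjusted p = 0.241) in limma, in the same direction.

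The heavy chains H2-D1 and H2-K1 present the peptides. H2-D1 had intensities of 36490, 55580, 97400, 72420 and 132500 in tumors 22, 24, 26, 50 and 52, and 51490 and 51210 in set B. The adjacent glands had 56610, 65910, 76110 and 89120, and the wild-type pools 66540, 79870 and 90130. Tumors 26 and 52 lay above every gland, tumors 22 and 24 below every gland, and both set B tumors below every gland. H2-D1 averaged 71710 in tumors (SD 0.72 on the log2 scale, n = 5) and 78240 in wild-type pools (SD 0.22, n = 3), and the difference of -0.13 ± 0.32 was not called (95% interval -0.81 to 0.56). H2-K1 read 55510, 59770, 95520, 59080 and 139120 in tumors 22, 24, 26, 50 and 52, and 47680 and 48300 in set B. The adjacent glands read 57190, 71660, 65760 and 89640 for H2-K1, and the wild-type pools 61390, 60070 and 69970. Again tumors 26 and 52 were the highest of all arrays and set B the lowest. The H2-K1 difference of tumors to wild type was 0.26 ± 0.28, not called (95% interval -0.32 to 0.85).

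Class I heavy chain genes are near-identical in long stretches, and 6 of the 15 member probe sets carry the suffix by which the platform marks sets that match a gene family, so the signal of H2-D1 and H2-K1 may hold that of related genes. The probe sets of a gene did not all move together. For H2-D1, 101886_f_at and 97540_f_at were correlated over the 14 arrays at r = 0.93, while 101886_f_at and 97541_f_at had r = 0.34. For H2-K1, 93120_f_at correlated with 97125_f_at at r = 0.77 and with 97700_at at r = 0.45. The H2-K1 sets 97125_f_at and 97700_at gave 0.78 ± 0.38 and 0.76 ± 0.35 for tumors against wild type, neither called in limma (adjusted p = 0.133 and 0.114). Of 3 probe sets annotated to a member together with other genes, 102161_f_at, which lists H2-D1 and H2-K1 among 10 entries, was bright enough to test. It read 15610, 24840, 66900, 40150 and 64280 in tumors 22, 24, 26, 50 and 52, 29300 and 38740 in set B, 28880 to 49070 in adjacent glands and 33540, 43200 and 37920 in wild-type pools. It was high in tumors 26 and 52 as the sets of H2-D1 and H2-K1 alone were.

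B2m, the invariant light chain, read 47730, 51370, 73320, 55850 and 116210 in tumors 22, 24, 26, 50 and 52, and 41020 and 32640 in set B. Adjacent glands read 43070, 51550, 35750 and 63970, and wild-type pools 53510, 44200 and 52430. Tumors 26 and 52 lay above all glands, and both set B tumors lay below the pools. The difference of tumors to wild type was 0.38 ± 0.27, not called (95% interval -0.19 to 0.96).

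Psmb8 and Psmb9 encode catalytic subunits that replace those of Psmb5 and Psmb6 in the immunoproteasome. Psmb8 read 8039, 14360, 20430, 9959 and 21090 in tumors 22, 24, 26, 50 and 52, 10370 and 11830 in set B, 10380, 11600, 12340 and 17780 in adjacent glands, and 9175, 11300 and 11230 in wild-type pools. Psmb9 read 1796, 4434, 7799, 3079 and 7881 in tumors 22, 24, 26, 50 and 52, 3249 and 4336 in set B, 4201, 3553, 4716 and 8375 in adjacent glands, and 4398, 5167 and 3863 in wild-type pools. For Psmb8 tumors 26 and 52 were the highest of all arrays, and for Psmb9 adjacent gland 51 exceeded both. The differences of tumors to wild type were 0.39 ± 0.29 for Psmb8 (95% interval -0.22 to 0.99) and -0.04 ± 0.40 for Psmb9 (-0.90 to 0.82), neither called. The log2 ratio of Psmb8 to Psmb5 was 0.64 in tumors 22, 24 and 50, 1.60 in tumor 26 and 2.73 in tumor 52, against 1.09, 1.38 and 1.60 in the pools. That of Psmb9 to Psmb6 was -1.67, -0.39, 0.60, -1.24 and 0.22 in tumors 22, 24, 26, 50 and 52, against 0.11, -0.30 and -0.31 in the pools. Both ratios differed among tumors by more than among pools, and their group means did not separate (exact permutation test, two-sided p = 0.75 and 0.643 for tumors against wild type).

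Counted over the 8 genes, 1 rose (Tapbp) and 1 fell (Tap2) in tumors against wild type, where 29.9% of all probe sets tested were called (15.8% higher, 14.1% lower). The members' median difference was 0.32, and that over all 6397 genes tested was 0.13. Between adjacent and wild-type gland none of the 8 was called, in a limma comparison that called 101 probe sets (1.17%, with 1273 at an unadjusted p under 0.05). Their differences ran from -0.14 to 0.33, the lowest unadjusted p among the 8 was 0.105 (limma, Tapbp), and only Tapbp had groups that did not overlap (14.5% of all probe sets, 7.71% higher and 6.82% lower). Of the 101 calls there 61.4% were higher, and 34.9% with each array centred on its median, which shifts that comparison by 0.17. In tumors against adjacent gland 1 of 8 fell (Tap2), where 14.4% of all probe sets were called, 5.34% higher and 9.04% lower. The other 7 differences ran from -0.19 to 0.46. In set B against wild type 1 of 8 fell (Tap2), where 23.2% were called, 11.2% higher and 12% lower (34.8% at an unadjusted p under 0.05).

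In the 2 set B tumors Tap2 was the one member called against wild type. H2-D1, H2-K1, B2m and Tap2 lay below every wild-type pool in both of them and Tapbp above, where 57.4% of all probe sets did not overlap in 1 direction or the other with 2 against 3 arrays. H2-D1 differed from wild type by -0.61 ± 0.40 (limma, adjusted p = 0.313), H2-K1 by -0.41 ± 0.34 (0.441) and B2m by -0.45 ± 0.34 (0.387). Under quantile normalization these turned to 0.18, 0.27 and 0.06, so they carry no direction. Against the first 5 tumors the 8 differences were -0.83 to -0.10, with B2m and H2-K1 below all 5, where 17.2% of probe sets did not overlap, 6.23% higher and 11% lower. In that limma comparison 0 of the 8 members and 0% of all probe sets were called (932 probe sets at an unadjusted p under 0.05, 10.8%). The unadjusted p in limma was 0.0173 for B2m and 0.0496 for H2-K1. The sign turned for H2-D1 (0.40) and H2-K1 (0.11) with quantile normalization, for Tapbp (0.06) with median centring, for Tapbp (0.05), Psmb8 (0.08) and Psmb9 (0.37) without tumors 26 and 52, and for Tap2 (0.12) without set B tumor 80.

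**Figure D3:**
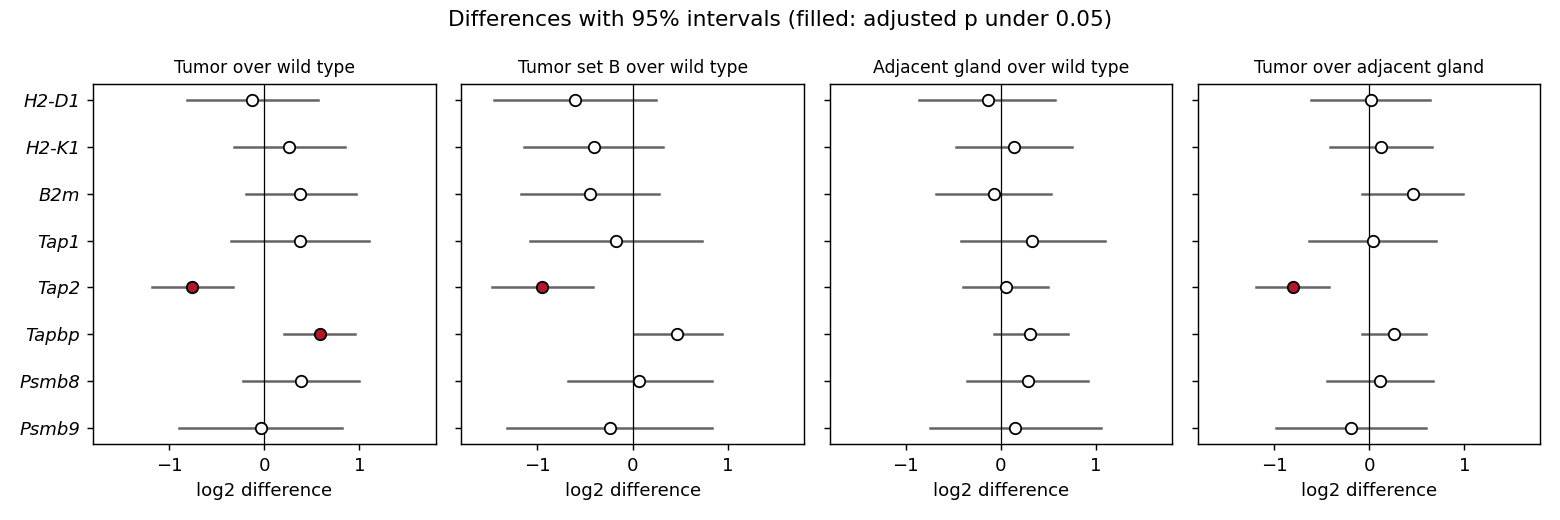
The log2 difference of each of the 8 genes with its 95% interval from the limma fit, for tumors over wild type, set B tumors over wild type, adjacent gland over wild type and tumors over adjacent gland, with filled points at an adjusted p under 0.05. The filled points are Tap2 in the 3 comparisons with tumors, at -0.76, -0.95 and -0.80, and Tapbp at 0.58 in tumors over wild type.

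In the order of the 4 group means, 20 of the 24 neighbouring pairs had ranges that overlapped. The exceptions were Tap2 between wild type and tumors, Tapbp between adjacent gland and wild type, H2-D1 between adjacent gland and set B, and H2-K1 between wild type and set B. Tumors had the highest mean for H2-K1, B2m, Tap1, Tapbp and Psmb8, adjacent gland for Tap2 and Psmb9, and wild type for H2-D1.

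Most of these genes differed widely from tumor to tumor. The highest tumor exceeded the lowest 4.39-fold for Psmb9, 3.63-fold for H2-D1, 3.54-fold for Tap1, 2.62-fold for Psmb8, 2.51-fold for H2-K1 and 2.44-fold for B2m, but 1.49-fold for Tapbp and 1.45-fold for Tap2. The members' median SD among the 5 tumors was 0.60 on the log2 scale, and that over all 6397 genes was 0.37. In adjacent glands it was 0.30 (all genes 0.40), and in wild-type pools 0.18 (all genes 0.23), where each pool averages 5 mice. Tumors 26 and 52 gave the 2 highest intensities among the 5 tumors for 7 of the 8 members (all but Tap2), and did so for 7.97% of all genes tested. The pair was picked because the members were high in it, and the members are correlated, so the 2 figures are a description and not a test. Tumor 22 was the lowest of the 5 for 7 members (15.1% of all genes tested) and tumor 24 for 1 (21.8%). The 2 high tumors came from different array lots, and the part of lot in this spread was not tested. Tumor 52 exceeded tumor 50 of its own lot for 7 of 8 members, and tumor 26 exceeded tumors 22 and 24 of its lot for 8 of 8. Among the 7 glands, adjacent gland 51 was the highest for 6 of the 8 genes. These arrays were named after their values were seen, and the share of all genes with these orders was not computed.

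Over all 14 arrays, 6 of the members were correlated with each other. Their 15 pairs had r of 0.53 to 0.90, with a median of 0.79, the highest for B2m with H2-K1. Tap1 and Psmb9, which share their promoter region, had r = 0.87, close to the 0.88 of Psmb8 with Psmb9. Tapbp correlated with these 6 at 0.07 to 0.42, and Tap2 with the other 7 members at -0.49 to 0.41. These are descriptions over arrays that share groups and lots, and each rests on a single probe set per gene. Among genes outside the 8, those most like their mean z-score over the 14 arrays were H2-Q4 (r = 0.89), H2-K2 (0.86), H2-Q5 (0.80), Csnk1d (0.75), Uba7 (0.73) and H2bc1 (0.73). H2-Q4, H2-K2 and H2-Q5 are further class I heavy chain genes, measured by family probe sets that may share signal with H2-D1 and H2-K1. H2-Q4 read 6414, 10380, 25410, 11250 and 26710 in tumors 22, 24, 26, 50 and 52, 9284 and 12760 in set B, 10050 to 13410 in adjacent glands and 8688 to 10640 in wild-type pools. Its high tumors were again 26 and 52.

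The 7 pathway lists around the members were counted in tumors against wild type, where 15.8% of all probe sets were called higher and 14.1% lower. Of 18 listed heavy chain genes outside the members, 6 passed the filter with a probe set of their own, and 1 of these rose: H2-Q1, a Q-region class I gene, by 1.11 ± 0.26 (limma, adjusted p = 0.00389). A probe set annotated to H2-T23, the gene of the nonclassical molecule Qa-1, together with a pseudogene (98472_at) read 21230, 20080, 26230, 11810 and 15760 in tumors 22, 24, 26, 50 and 52, and 13830 and 16170 in set B. It read 12070, 7351, 10060 and 7817 in adjacent glands and 8951, 8997 and 6619 in wild-type pools. All 7 tumors lay above the pools, while tumor 50 lay below adjacent gland 23. Its difference was 1.18 ± 0.24 in tumors against wild type (limma, adjusted p = 0.0016) and 0.88 in set B against wild type (adjusted p = 0.0448). Its order among tumors was not that of the members, with tumor 52 below tumors 22, 24 and 26. Probe set 101876_s_at, for H2-T9, H2-T22 and H2-T10, did follow them, with 17050 and 18120 in tumors 26 and 52, 4395 to 7406 in the other 3 tumors and 3589 to 4560 in wild-type pools (difference 1.13 ± 0.38, limma, adjusted p = 0.0342).

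Of 3 class I-like partners of B2m tested, Cd1d1, which presents lipids to natural killer T cells, fell by 1.37 ± 0.31 on the log2 scale (limma, adjusted p = 0.00343). None of 3 further immunoproteasome and proteasome activator genes was called. Psmb10, the third immunoproteasome subunit gene, gave -0.50 (adjusted p = 0.0771) and Psme3, of the nuclear activator, -0.15 (adjusted p = 0.651). Of 14 genes of the constitutive proteasome core 2 rose, Psmb2 by 0.63 and Psma1 by 0.56, a share near the 15.8% of all probe sets called higher. Among 8 genes of class I folding and peptide trimming, 4 rose and 1 fell (all probe sets 15.8% higher, 14.1% lower). Tpp2, a cytosolic peptidase, fell by 2.93 ± 0.31. Pdia3, whose product ERp57 sits in the peptide-loading complex with tapasin, rose by 2.03 ± 0.26 (limma, adjusted p = 3.04e-05), the aminopeptidase gene Lap3 by 1.83 ± 0.38, and Hspa5, the endoplasmic reticulum chaperone BiP, by 0.79 ± 0.21. Pdia3 read 18280, 16080, 15430, 8010 and 11830 in tumors 22, 24, 26, 50 and 52, 8641 and 13440 in set B, 8611, 9350, 6201 and 5946 in adjacent glands and 3084, 4136 and 2789 in wild-type pools. Every tumor and every adjacent gland thus lay above the pools, and tumor 26 and tumor 52 were not the highest.

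Of 11 regulators of class I transcription tested, 1 rose and 3 fell, where 29.9% of all probe sets were called (15.8% higher, 14.1% lower). Irf1, a transcription factor that activates class I and Tap1 genes downstream of interferon gamma, fell by 0.94 ± 0.26 (limma, adjusted p = 0.0114). It read 1996, 2064, 1213, 1996 and 3128 in tumors 22, 24, 26, 50 and 52, 2623 and 2214 in set B, 2667 to 4614 in adjacent glands and 3841, 4317 and 3367 in wild-type pools. Tumor 26, above tumors 22 and 24 for 8 of 8 members, was the lowest tumor for Irf1, and tumor 52 the highest. Irf8, a factor of myeloid and B cells, fell by 1.13 ± 0.34 (adjusted p = 0.0211 in limma), Ifngr1, the ligand-binding chain of the interferon gamma receptor, fell by 0.78 ± 0.24 (0.0236), and Irf9, the DNA-binding part of the type I interferon complex ISGF3, rose by 0.72 ± 0.21 (0.0167). Of 17 interferon response genes 9 rose and 2 fell (all probe sets 15.8% higher, 14.1% lower), with a list median of 1.06 (all genes 0.13). The largest changes were in Ifit1 (3.13), Usp18 (2.71) and Irf7 (1.87), all induced by interferon, and in Cxcl9, a T cell chemokine induced by interferon gamma, which fell by 2.64 (limma, adjusted p = 0.00058). Cxcl9 was set to the floor of 101 in 2 of the 5 tumors, so that value understates its fall.

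Between adjacent and wild-type gland 0 of the 62 genes tested in these 7 lists were called in limma, and 7 had an unadjusted p under 0.05. Against adjacent gland, 14 of the 62 were called in tumors, where 14.4% of all probe sets were. Tpp2 again fell, by 2.26 ± 0.28, and Pdia3 and Lap3 rose by 0.86 ± 0.24 and 1.34 ± 0.35. Irf1 fell by 0.78 ± 0.24, Irf8 by 1.23 ± 0.32 and Jak2, a kinase of the interferon gamma receptor, by 0.64 ± 0.19. Cd1d1 fell by 0.97 ± 0.29, and Mr1, which presents vitamin B metabolites to MAIT cells, rose by 1.17 ± 0.35 (limma, adjusted p = 0.0363). Of 17 interferon response genes 4 rose and 2 fell, where 5.34% of all probe sets were called higher and 9.04% lower. No gene tested in the lists of heavy chains (6 genes), activators (3) or the constitutive core (14) was called.

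**Figure D4:**
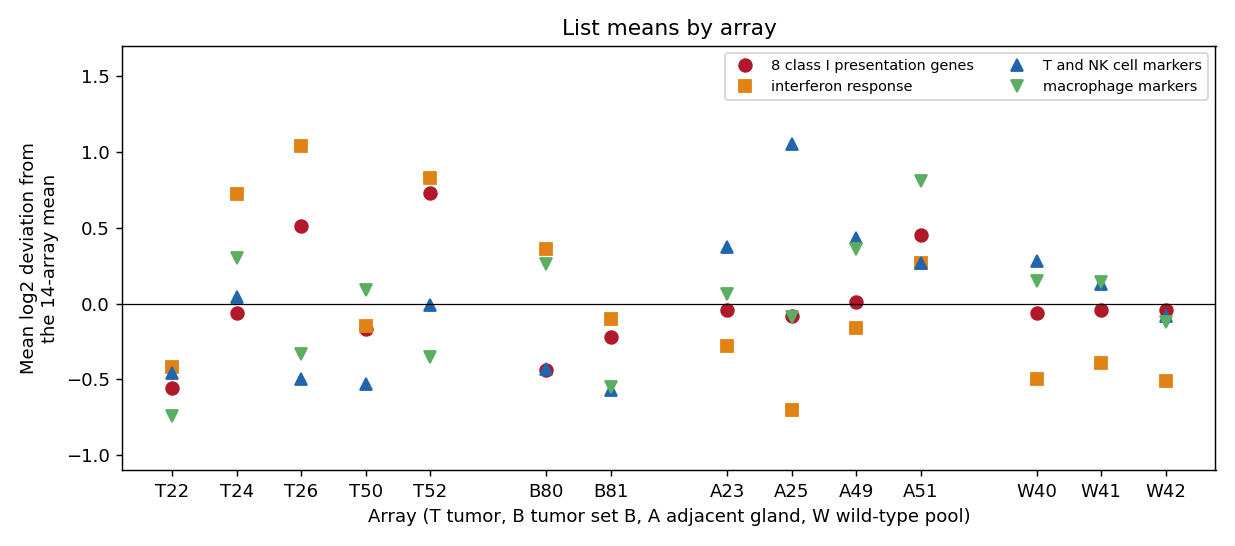
Mean log2 deviation from the 14-array mean, 1 point per array and list, for the 8 class I presentation genes, interferon response genes, T and NK cell markers and macrophage markers, in tumors (T), set B tumors (B), adjacent glands (A) and wild-type pools (W). The class I genes are highest in tumors 52 (0.73) and 26 (0.51), where the interferon list stands at 0.83 and 1.04, and the interferon list is also high in tumor 24 (0.72), where the class I genes are at -0.06.

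The interferon list was set beside the members array by array. The members' mean log2 deviation from the 14-array mean was -0.56, -0.06, 0.51, -0.17 and 0.73 in tumors 22, 24, 26, 50 and 52, -0.44 and -0.22 in set B, -0.04, -0.08, 0.01 and 0.45 in adjacent glands and -0.06, -0.04 and -0.04 in pools. That of the interferon list was -0.42, 0.72, 1.04, -0.15 and 0.83 in tumors 22, 24, 26, 50 and 52, 0.36 and -0.10 in set B, -0.28, -0.70, -0.16 and 0.27 in adjacent glands and -0.50, -0.39 and -0.51 in pools. Both were lowest among tumors in tumor 22 and highest among glands in adjacent gland 51, while tumor 24 was high for the interferon list alone. Of the 17 interferon genes tested, 7 had their 2 highest tumors in 26 and 52, among them Ifit1, Usp18 and Irf7. So had 1 of 11 regulators (Irf9), 1 of 14 constitutive proteasome genes (Psmb7) and 7.97% of all genes tested. Ifit1 read 1454, 1459, 3826, 1236 and 2722 in tumors 22, 24, 26, 50 and 52, 1892 and 1073 in set B, 113.5 to 676.1 in adjacent glands and 180.7 to 260 in wild-type pools. All tumors were above all glands for Ifit1, unlike for the 8 members.

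These are bulk tissues, in which fewer cells of a type and less RNA per cell cannot be told apart, and the groups differed in their cells. Luminal epithelial markers summed to 90482 to 139456 in tumors, 81956 to 114611 in set B, 64577 to 97837 in adjacent gland and 55915 to 60550 in wild-type pools (15 genes). Their mean log2 deviation was -0.12 to 0.42 in tumors, -0.21 to 0.31 in set B, -0.12 to 0.41 in adjacent gland and -0.65 to -0.49 in pools. In tumors against pools 12 of the 14 genes tested had positive differences, while Krt19 read 24.6 to 1275 in tumors and 9961 to 12730 in pools. Adipocyte markers summed to 4878 to 10773 in tumors, 6261 to 6561 in set B, 129599 to 222471 in adjacent gland and 246846 to 341930 in pools (10 genes). Skeletal muscle markers summed to 1461 to 7615 in tumors, 1074 to 1326 in set B and 50440 to 94385 in pools (9 genes). They summed to 32581 and 34278 in adjacent glands 23 and 25, and to 1835 and 1567 in glands 49 and 51. Of 8 muscle genes tested, 6 fell and 1, Ckm, rose in tumors against pools (all probe sets 14.1% lower, 15.8% higher). The part of muscle in the members' differences was not tested. Leukocytes express class I genes strongly. The 17 T and NK cell markers summed to 3220 to 5926 in tumors, 2902 to 3602 in set B, 7018 to 11586 in adjacent gland and 7259 to 7352 in pools, with Cd8a at the floor in every tumor. Much of that sum was Thy1, a surface protein that fibroblasts also express, which fell by 3.07 ± 0.44 in tumors against pools (limma, adjusted p = 8.17e-05). The other 3 T and NK cell markers that passed the filter were not called, with differences of 0.06 for Cd4, 0.71 for Zap70 and 0.68 for Gzmb, and the list median was 0.37. The 9 dendritic cell and class II genes summed to 16043 to 45763 in tumors, 15326 to 24124 in set B, 41616 to 88924 in adjacent gland and 56799 to 68204 in pools, and the 8 B cell genes to 3115 to 5130 in tumors, 2242 to 3129 in set B, 7442 to 18287 in adjacent gland and 10170 to 11472 in pools. The summed intensity of these 3 lists was lower in every tumor than in every pool. By mean log2 deviation only the B cell list kept that order, at -0.71 to -0.17 in tumors, -1.18 to -0.79 in set B and 0.24 to 0.29 in pools. Its genes did not all go that way. Of 7 tested, 2 fell (Jchain and Ighm) and 1 rose (Pax5) in tumors against pools, where 14.1% of all probe sets were called lower and 15.8% higher. Pax5 read 322.3 to 984.6 in tumors and 101.1 to 149 in pools, close to the floor of 101. The T and NK cell deviation overlapped, at -0.53 to 0.04 in tumors and -0.08 to 0.28 in pools, as did that of the dendritic cell and class II list, at -1.03 to 0.22 in tumors and 0.12 to 0.47 in pools. Of 8 genes tested in that last list, 4 fell and 1 rose in tumors against pools (all probe sets 14.1% lower, 15.8% higher). The one that rose was H2-DMb1, at 2328 to 4096 in tumors and 1316 to 2489 in pools. Stromal and basal markers were lower in every tumor than in every gland by both measures. Endothelial markers summed to 6757 to 9748 in tumors, 6084 to 7889 in set B, 13109 to 27340 in adjacent gland and 25765 to 31414 in pools. Fibroblast markers summed to 15084 to 39954 in tumors, 17254 to 21301 in set B, 105007 to 188913 in adjacent gland and 127207 to 158217 in pools, and basal epithelial markers to 3926 to 6944 in tumors, 5304 to 7106 in set B, 15327 to 31530 in adjacent gland and 23030 to 26065 in pools. Tap2 was low in the same arrays, and the part of any of these cell types in its difference was not tested. The 13 macrophage markers overlapped, with 27700 to 60074 in tumors, 30680 to 62503 in set B, 42979 to 73904 in adjacent gland and 46410 to 51746 in pools. Sums of the 11 pan-leukocyte markers were 17109 to 25424 in tumors and 18078 to 24530 in set B. They were 16676 to 29992 in adjacent gland and 16179 to 17363 in pools. Their mean log2 deviation was -0.61 to 0.06 in tumors, -0.37 to 0.20 in set B and 0.01 to 0.08 in pools. Of these 11, 2 rose (Lcp1 and Ptpn6) and 1 fell (Cd48) in tumors against pools (all probe sets 15.8% higher, 14.1% lower). Among the 5 tumors the T and NK cell mean deviation was -0.50 in tumor 26 and -0.01 in tumor 52, inside the range of -0.53 to 0.04 of all 5. The mean deviation of the 11 pan-leukocyte markers was -0.17 in tumor 26 and -0.08 in tumor 52, and -0.61, 0.06 and -0.17 in tumors 22, 24 and 50. Their sum gave another order, with tumor 26 lowest at 17109, and Lcp1, a bright gene of that list, was at 5178 in tumor 26 and 9240 to 15000 in the other 4. Of 7 B cell genes tested, 3 (Cd79a, Jchain and Ighm) had their highest tumors in 26 and 52, as had 7.97% of all genes tested. The margin was small for Jchain (392.7 in tumor 26, 385.9 in tumor 24) and Ighm (1312 in tumor 52, 1235 in tumor 24). It was wider for Cd79a (626.1 in tumor 26, 498.8 in tumor 50). Set B tumor 80 read 791.8 for Jchain, above all 5 tumors. The part of B lineage cells in the members' spread was not tested. The actin 3′ to 5′ ratio, a sign of RNA quality, was 0.08 to 0.76 on the log2 scale in tumors, 0.14 to 0.21 in set B, 0.38 to 1.52 in adjacent gland and 0.90 to 1.51 in pools. It stood at 0.40 in tumor 26 and 0.62 in tumor 52, within the range of the other tumors, and its part in the differences between tumors and wild type was not tested.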

How the data were processed

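Each of the 14 RNA samples was measured on a 1-colour oligonucleotide array of its own. The deposited values are linear intensities, 1 for each probe set of an array, made with software not given in the sources used. Their 2%-trimmed means lay between 1500.7 and 1500.9, which points to array scaling before deposit, and no further scaling was applied. Array medians were 544 to 784. Precision is limited by how few arrays there are.

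Intensities under 101, the 20th percentile of all deposited values, were set to it, and log2 was taken. After removal of 66 controls and of 3806 dim probe sets, those that exceeded the array's 40th percentile on fewer than 3 arrays, 8616 were tested. Gene names came from the platform annotation (10855 with 1 gene, 396 with several, 1237 with none), with symbols updated for 10839. Each gene was represented by its brightest single-gene probe set (mean log2 over all arrays). The fit over all 14 arrays and 4 groups used limma 3.58.1 in R 4.3.3 (lmFit and a trended eBayes, two-sided p, Benjamini-Hochberg), with 10 residual degrees of freedom. Scripts were tested on simulated data.

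The members and lists were chosen with earlier results of these data known. Named genes were all members and, per pathway list, up to 4 called genes with the largest change in tumors against wild type, or 2 with the smallest p. The 6 other genes most like the members' mean z-score by Pearson r over the 14 arrays were also named. Psmb7, Jak2, Mr1, Cd79a, Jchain, Ighm and the probe sets of H2-T23 and H2-T9 were named after their values were seen. So were Pax5, H2-DMb1, Ptpn6, Cd48 and Ckm. Ratios between probe sets were chosen after their values were seen and tested by exact permutation over samples. Promoters are from RefSeq (GRCm38.p6). The arrays came from 5 lots: 2001815 (tumors 22, 24 and 26, adjacent glands 23 and 25), 2004097 (tumors 50 and 52), 2004907 (adjacent glands 49 and 51, pool 40), 2003877 (pools 41 and 42) and 2006609 (set B). Alternatives were other floors, no filter, quantile normalization, median centring, lot as a block and within lots, 2 groups alone, no trend, each array left out and other probe sets. Numbers were computed in Python 3.11.15 with numpy 2.4.6 and pandas 2.3.3.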

Additional observations from a re-analysis of the deposited data

Results flagged for a closer look

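Among 30 groups of 4 or 5 arrays examined over the 15 member probe sets, 2 held an array that stood apart by Dixon's test, where chance gives about 1 in 20. Tapbp (100154_at) was 11420 in adjacent gland 23, against 8757 to 8785 in the other 3 adjacent glands. Its probe set 162104_f_at was 1614 in tumor 50, against 2528 to 3001 in the other 4 tumors.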

How the results depend on the processing

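Over the 4 called differences of members, 77 alternative values were computed: all 77 kept their direction and 61 kept the call. None of 670 alternatives of uncalled differences was called, and 71 of them changed sign. The alternatives that leave out tumors 26 and 52, or read lot 2004097 as 2004907 within that lot, were chosen after seeing the data. No paired analysis was possible because the groups share no replicate numbers and the labels tie no tumor to an adjacent gland. In tumors against wild type, 1 member was called with median centring and without tumors 26 and 52, and 0 with lot as a fixed block, with lots 2004097 and 2004907 read as 1, and within that lot; leaving out 1 array at a time gave 1 to 2, losing Tapbp without pool 40 or pool 41. Probe sets called there numbered 360 with the lot block, 921 with the lots read as 1 and 661 within that lot. Against adjacent gland, Tap2 was lost (0 members) with lot as a block and within either lot (-0.93 within the lots read as 1, adjusted p = 0.126), and probe sets called numbered 597, 209 within lot 2001815, 489 within the lots read as 1 and 818 without tumors 26 and 52. Tap2 against wild type was -0.68 (adjusted p = 0.225) with the lots read as 1 and -0.74 (0.272) within that lot, and Tapbp 0.55 (0.274) and 0.61 (0.311). Tap2 kept its call against wild type and against adjacent gland whichever array was left out, at -0.81 to -0.68 and -0.88 to -0.72. In adjacent against wild-type gland, probe sets called numbered 53 without the filter, 56 with the lot block, 26 with the lots read as 1, 0 within lot 2004907 (limma), 28 with the 2 groups alone, and 14 to 200 leaving out 1 array, with 36 without gland 49, 200 without gland 51, 50 without pool 40, 24 without pool 41 and 14 without pool 42. In set B against wild type, leaving out 1 array gave 0 to 1 members, 0 without tumor 80, and probe sets from 1053 (without tumor 81) and 1138 (without tumor 80) up to 1664; against the first tumors it gave 0 to 3, and 1 without the filter.

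Sign changes were of uncalled differences, and not all of these were small. In the main fit H2-D1 stood at -0.61 in set B against wild type. Against the first tumors, set B stood at -0.67 for H2-K1 and -0.48 for H2-D1. In tumors against wild type, H2-D1 turned to 0.24 with the lot block, 0.47 with the lots read as 1, 0.56 within that lot, 0.05 and 0.32 in its other probe sets; Psmb9 to 0.55, 0.27 and 0.16 in the same lot settings and 0.05 with a random block; and H2-K1, Tap1 and Psmb8 to -0.13, -0.11 and -0.01 without tumors 26 and 52. In adjacent against wild-type gland, Tap2 turned to -0.01 with quantile normalization, Tap2, H2-K1 and Psmb9 to -0.12, -0.03 and -0.02 with median centring, and H2-D1 to 0.31 with the lot block and within lot 2004907, 0.39 with the lots read as 1 and 0.11 in 97541_f_at. In tumors against adjacent gland, H2-D1 turned to -0.08 with quantile normalization, -0.07 with the lot block and within lot 2001815 and -0.01 with a random block, Psmb9 to 0.04 with the block and within lot 2001815, Psmb8 to -0.03 within the lots read as 1, and H2-D1, H2-K1, Tap1 and Psmb8 to -0.43, -0.27, -0.44 and -0.28 without tumors 26 and 52. In set B against wild type, H2-D1, H2-K1 and B2m turned to 0.18, 0.27 and 0.06 with quantile normalization, and other probe sets gave 0.36 for H2-D1, 0.22 for H2-K1 and -0.19 for Tapbp. Against the first tumors, H2-D1 and H2-K1 turned to 0.40 and 0.11 with quantile normalization, Tapbp to 0.06 with median centring, Tapbp, Psmb8 and Psmb9 to 0.05, 0.08 and 0.37 without tumors 26 and 52, and other probe sets gave 0.04 for H2-D1 and 0.32 for Tapbp. The causes were not tested. Leaving out 1 array at a time also turned the sign of small differences, with these ranges. In tumors against wild type H2-D1 ran from -0.35 to 0.12 and Psmb9 from -0.26 to 0.28. In adjacent against wild-type gland B2m ran from -0.21 to 0.07, Tap2 from -0.04 to 0.13 and Psmb9 from -0.11 to 0.31. In tumors against adjacent gland H2-D1 ran from -0.21 to 0.26, H2-K1 from -0.09 to 0.24, Tap1 from -0.20 to 0.26, Psmb8 from -0.04 to 0.31 and Psmb9 from -0.41 to 0.13. In set B against wild type Tap1 ran from -0.47 to 0.12 and Psmb8 from -0.02 to 0.17, and against the first tumors Psmb9 ran from -0.52 to 0.01, Tap2 from -0.51 to 0.12 and Tapbp from -0.25 to 0.04.

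Group sizes of 2 to 5 arrays leave wide intervals, and 6 of 8 members have intervals for tumors against wild type that include both a rise and a fall. Lot and group are confounded in part: by the numbers as given, no lot holds both tumors and wild-type pools. Lot numbers 2004097 and 2004907 differ only in the order of their digits and were read as 1 lot in an alternative, since either may be a typing error (then tumors 50 and 52 share a lot with pool 40: H2-D1 0.56, Tap2 -0.74 within it). The platform marks 6 of the 15 member probe sets as matching a gene family, and each pool averages 5 mice.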
